A study of Mus musculus with 4 samples.

Results

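The Ikaros, RUNX and BCL11B genes were followed in mouse primary T cells. The members were taken by name, not by level. They were Ikzf1, Ikzf2, Ikzf3, Ikzf4 and Ikzf5 of the Ikaros family, the RUNX genes Runx1, Runx2 and Runx3, their partner subunit Cbfb, and Bcl11b, 10 of the 50600 genes in the count tables. Bulk RNA was sequenced in 4 libraries, numbered in the labels as 4 biological replicates of 1 group. The cells were primary T cells of the C57BL/6NJ strain; age was unknown, sex was not collected, no genotype or treatment was named, and all libraries carried 1 donor identifier. The file headers named the samples mmTh0, activated bulk cells at 72 h, and the linked differentiation document was one for CD4+ T cells. No second group was present, so the questions were how abundant each factor was beside its relatives and how far the libraries differed. Nothing in the labels says whether the libraries came from separate cultures or animals, so p-values measure only the spread between these libraries, part of which may be technical.

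Ikaros proteins are zinc-finger factors that bind DNA through amino-terminal fingers and pair with each other through carboxy-terminal fingers, and they bring the NuRD chromatin remodelling complex and other corepressors to lymphoid genes. RUNX proteins bind DNA through the Runt domain and are stabilised on it by CBFβ, the product of Cbfb, which does not bind DNA itself. In the T lineage RUNX factors silence Cd4 in cytotoxic cells, and BCL11B holds developing cells to the T-cell fate.

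Library totals ran from 49613182 to 94222415 counts, and the 10 genes together received 62136 to 109199 counts a library. Levels are given as TPM, the count divided by the gene's exon length and scaled to 1 shared total in every library, as mean ± SD over the 4 libraries unless stated. All 14 T-cell markers, Cd3d and Cd3e first among them, were detected, meaning that each reached 1 TPM in all 4 libraries. Cd4 averaged 1056 ± 62.8 TPM, whereas Cd8a averaged 0.190 ± 0.0957 TPM and Cd8b1 15.8 ± 2.38 TPM. Of the 5 natural killer cell markers none was detected, Ncr1 and Klrb1c included, and Adgre1 alone of the 7 myeloid markers was, with Lyz2 and Csf1r at 0 counts in 3 of the 4 libraries. Xist had 99808 and 43463 counts in replicates 1 and 2 and 219 and 195 in replicates 3 and 4, while Ddx3y, on the Y chromosome, had 3 and 7 counts in replicates 1 and 2 and 3546 and 6620 in replicates 3 and 4. The libraries thus split in pairs by sex-linked RNA, which 1 animal would not give, although the labels carry 1 donor identifier. Between replicates 1 and 2, and between replicates 3 and 4, the spread may still be technical.

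Ikzf1 was the most abundant of the 10 genes, followed by Cbfb, Runx3 and Bcl11b, and Ikzf3 was the least abundant. Of the 10 members 9 were detected, while 49.4% of all 21761 protein-coding genes were. The median of the members' mean levels was 23.8 TPM, and the median over all 21761 protein-coding genes was 1.21 TPM. Over the 11054 protein-coding genes with a mean TPM of at least 1, a limit that Ikzf3 does not reach, it was 33.0 TPM. Bulk RNA cannot tell fewer expressing cells from less RNA per cell, and this holds for every level below.

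**Figure D1:**
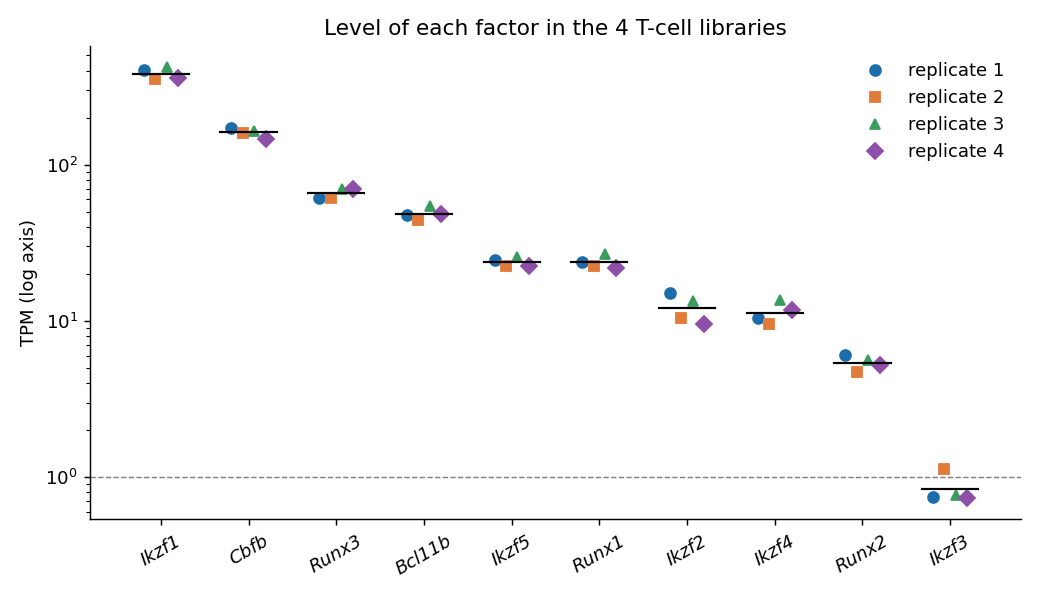
TPM of each factor on a log axis, 1 symbol per library and a bar at the mean of the 4 libraries, with genes ordered by mean and a dashed line at 1 TPM. The 4 Ikzf1 libraries lie between 351 and 419 TPM, and only replicate 2 of Ikzf3 lies above the dashed line.

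Ikzf1 (ENSMUSG00000018654, chromosome 11, 11685003 to 11772926, plus strand, mm10), which encodes Ikaros itself, had 403, 351, 419 and 361 TPM in replicates 1 to 4, from 32724 to 57866 counts. Its mean of 383 ± 32.8 TPM exceeded that of 98.2% of protein-coding genes. Replicates 1 and 3 were the higher libraries, and the highest was 1.19 times the lowest.

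Ikzf5 (ENSMUSG00000040167, chromosome 7, 131388652 to 131410521, minus strand), encoding Pegasus, the most divergent relative, had 24.6, 22.4, 25.8 and 22.6 TPM. These libraries lay close together around a mean of 23.9 ± 1.63 TPM. Ikzf2 (ENSMUSG00000025997, chromosome 1, 69531214 to 69687245, minus strand), encoding Helios, which marks many regulatory T cells, had 15.0, 10.5, 13.4 and 9.58 TPM. Replicates 1 and 3 were high and replicates 2 and 4 low, with a mean of 12.1 ± 2.52 TPM. Ikzf4 (ENSMUSG00000002578, chromosome 10, 128632415 to 128645993, minus strand), encoding Eos, a corepressor partner of FOXP3, had 10.5, 9.51, 13.6 and 11.8 TPM. Here replicate 3 was the high library and replicate 2 the low one, and the mean was 11.3 ± 1.77 TPM.

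Ikzf3 (ENSMUSG00000018168, chromosome 11, 98464902 to 98546031, minus strand) encodes Aiolos, best known from maturing B cells and also expressed in some T-helper subsets. It had 0.742, 1.13, 0.771 and 0.740 TPM, from 109, 160, 94 and 180 counts. Replicate 2 stood above the others, which lay within 0.740 to 0.771 TPM. The summed TPM of 8 B-cell markers was 8.51, 10.5, 7.69 and 7.51 in replicates 1 to 4 and so was also highest in replicate 2, with Igkc at 2.02, 4.19, 2.83 and 1.76 TPM. Cd79a had 1.06, 0.595, 0.690 and 1.24 TPM and was lowest in replicate 2, and 3 of the 8 markers were detected. The part of B-cell RNA in the Ikzf3 level was not tested.

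Within each library, Ikzf1 RNA exceeded Ikzf3 RNA 309.9-fold to 544-fold and Ikzf2 RNA 26.9-fold to 37.6-fold. On the log2(TPM + 1) scale, which understates differences that involve low genes, Ikzf1 minus Ikzf3 was 7.70 ± 0.24 and Ikzf1 minus Ikzf2 was 4.89 ± 0.18, positive in 4 of 4 libraries. Ikzf3 minus Ikzf2 was -2.81 ± 0.36 and Ikzf4 minus Ikzf5 was -1.02 ± 0.16, negative in 4 of 4 libraries. Each of these gave p = 0.125 in the exact two-sided sign-flip permutation test, the smallest p that 4 libraries allow, over 11 pairs compared. Ikzf2 minus Ikzf4 was 0.08 ± 0.32, positive in 2 of 4 libraries, with an exact permutation p of 0.75. Helios and Eos RNA thus could not be ordered with the files' exon lengths. With the longest coding sequence as length, Ikzf2 averaged 30.6 ± 6.39 TPM and Ikzf4 6.84 ± 1.12 TPM, a difference of 2.00 on the same scale. The counts still cover all exons, so dividing by coding length raises genes with long untranslated parts. Ikzf2 has 11613 exon bases and 1596 coding bases, against 3580 and 2058 for Ikzf4.

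As shares of the summed TPM of the family, which was 431 ± 37.6 TPM, Ikzf1 made up 88.8%, 89.0%, 88.7% and 89.0% in replicates 1 to 4. Since Ikzf1 makes up most of the sum it is divided by, this share moves much less, in proportion, than the level of Ikzf1 does. Ikzf5 followed with 5.42%, 5.68%, 5.46% and 5.58%. Ikzf2 made up 3.30%, 2.66%, 2.84% and 2.36%, and Ikzf4 2.30%, 2.41%, 2.88% and 2.91%. Ikzf2 was the larger of these in replicates 1 and 2, and Ikzf4 in replicates 3 and 4, the same pairs into which Xist and Ddx3y split the libraries. In replicate 3 the shares differed little, 2.84% and 2.88%. The order rests on the files' exon lengths: by longest coding sequence Ikzf2 averaged 5.47% and Ikzf4 1.23%. Of all tested genes, 31.1% had no overlap in TPM between the same pairs, but this counts single genes and gives no rate for genes changing order. Ikzf2 itself overlapped between the pairs, at 15.0 and 10.5 TPM against 13.4 and 9.58 TPM. Ikzf3 made up 0.163%, 0.287%, 0.163% and 0.183%.

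**Figure D2:**
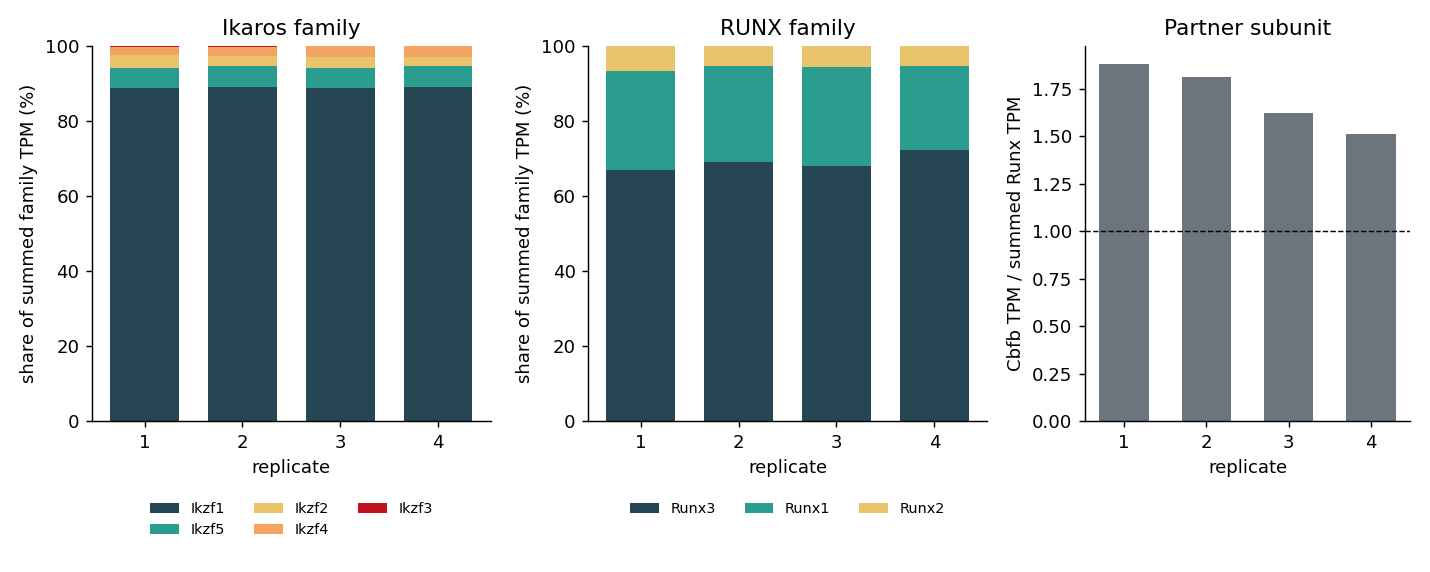
Stacked bars give each gene's percent of the summed TPM of the Ikaros family (left) and of the 3 RUNX genes (middle) in replicates 1 to 4, and single bars (right) give the Cbfb TPM divided by the summed RUNX TPM, with a dashed line at 1. Ikzf1 holds 88.7% to 89.0% of its family, Runx3 67.0% to 72.2% of the RUNX genes, and every Cbfb bar is above 1.

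Of the DNA-binding RUNX genes, Runx3 was the most abundant, then Runx1, then Runx2. Runx3 (ENSMUSG00000070691, chromosome 4, 135120652 to 135177990, plus strand), needed for the CD8 lineage and for stable Cd4 silencing, had 61.1, 60.8, 69.4 and 70.3 TPM. Replicates 3 and 4 were the higher libraries, and the mean was 65.4 ± 5.14 TPM. Runx1 (ENSMUSG00000022952, chromosome 16, 92601466 to 92826149, minus strand), required for blood stem cells and early thymocytes, had 24.0, 22.5, 27.0 and 21.7 TPM, with replicate 3 highest and a mean of 23.8 ± 2.31 TPM.

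Runx2 (ENSMUSG00000039153, chromosome 17, 44495987 to 44814797, minus strand), the regulator of bone-forming osteoblasts, had 6.07, 4.68, 5.64 and 5.25 TPM. Replicate 1 was highest and replicate 2 lowest around 5.41 ± 0.590 TPM. One osteoblast or fibroblast marker of 7, Alpl, was detected, at 3.15, 8.86, 2.79 and 11.8 TPM. It was high in replicates 2 and 4, where Runx2 was lower. Sp7, the osteoblast factor gene of the same list, had 1.62, 0.767, 1.38 and 0.731 TPM and was high in replicates 1 and 3, where Runx2 was higher. The summed TPM of the 7 markers ran from 5.27 to 13.8, Col1a1 averaged 0.807 ± 0.179 TPM, and Col1a2 was at 0 counts in replicates 1 and 2. The part of such cells in the Runx2 level was not tested.

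Cbfb (ENSMUSG00000031885, chromosome 8, 105170674 to 105217989, plus strand) had 172, 159, 165 and 147 TPM. Its libraries ran from replicate 4, the lowest, to replicate 1, the highest, with a mean of 161 ± 10.4 TPM that exceeded 94.4% of protein-coding genes. The summed TPM of Runx1, Runx2 and Runx3 was 91.2, 88.0, 102 and 97.3, so Cbfb RNA was 1.88, 1.81, 1.62 and 1.51 times the RUNX sum. In every library, then, the partner subunit's RNA exceeded that of its 3 DNA-binding partners combined when scaled by exon length. The ratio was 0.856 with counts not scaled by length, 2.06 with the longest coding sequence and 1.39 with the longest coding transcript as length.

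Runx1 minus Runx3 was -1.42 ± 0.16 on the log2(TPM + 1) scale, negative in 4 of 4 libraries, and -0.35 with the longest coding sequence as length. Runx3 exceeded Runx2 10.1-fold to 13.4-fold and Runx1 exceeded Runx2 3.96-fold to 4.81-fold within libraries, and the log2(TPM + 1) differences were 3.37 ± 0.16 and 1.95 ± 0.13. Cbfb minus Runx1 was 2.71 ± 0.10. All of these had 1 sign in 4 of 4 libraries and the smallest possible exact permutation p of 0.125. As shares of RUNX TPM, Runx3 held 67.0%, 69.1%, 68.0% and 72.2%, Runx1 26.4%, 25.6%, 26.5% and 22.4%, and Runx2 6.65%, 5.32%, 5.53% and 5.40% in replicates 1 to 4. The Runx3 share was highest, and the Runx1 share lowest, in replicate 4. These shares rest on exon lengths that differ between the genes, 11827 bases for Runx1 and 5003 for Runx3. Runx1 held 42.9% of the unscaled counts of the 3 genes and Runx3 49.8%, and with the longest coding sequence as length the shares were 41.5% and 53.0%.

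Each RUNX gene is transcribed from a distal and a proximal promoter, and the gene counts sum both. RefSeq promoter windows (GRCm38.p6, 250 bases before to 50 after a start) were found for 7 of the 10 members, in 10 windows; Ikzf2, Ikzf3 and Ikzf4 had none in the table. The RUNX core TGTGGT, searched on both strands and so also as ACCACA, stood in 3 of these 10 windows and in 5506 of all 32851 windows (16.8%). Those 3 were the distal windows of Runx1, Runx2 and Runx3, the genes whose products bind this core, and each held a tandem of 2 cores on 1 strand. The sequences are printed 5′ to 3′ along each gene's own strand to show the shared tandem, with the cores in capitals.
Runx1, chr16:92826025-92826054, minus strand: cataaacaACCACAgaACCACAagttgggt
Runx2, chr17:44814583-44814612, minus strand: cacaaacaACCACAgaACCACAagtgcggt
Runx3, chr4:135120503-135120532, plus strand: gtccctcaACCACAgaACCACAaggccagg
The first core began at position 29 in Runx1, 24 in Runx2 and -134 in Runx3, counted from the RefSeq start as position 1. Runx1 and Runx2 shared 27 of the 30 bases, Runx1 and Runx3 19, and Runx2 and Runx3 21. The longest run common to the 3 genes was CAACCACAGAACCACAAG, 18 bases.

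Such a tandem, with 8 bases from the start of one core to the start of the next, stood in 7 of all 32851 windows (0.0213%), the spacing having been taken from the RUNX windows themselves. Of the other 4 windows, that of Gm16225 overlaps the Runx3 window on the opposite strand and holds the same site, and Gm16225 had 1.08, 0.449, 0.520 and 0.261 TPM. The remaining ones belong to Gm12236, Gm15462 and Olfr24, all at 0 TPM. The proximal windows of Runx1 and Runx3 held no RUNX core, and neither did the windows of Ikzf1, Ikzf5, Cbfb and Bcl11b. Runx2 had no window other than the distal one, which held 3 RUNX cores in all, so its proximal promoter was not searched. The Ikaros core TGGGAA, searched on both strands, stood in 1 of the 10 windows, the distal one of Runx3, and in 25.6% of all windows. A match or its absence describes the letters of these windows and says nothing of binding.

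Bcl11b (ENSMUSG00000048251, chromosome 12, 107910403 to 108003602, minus strand) had 47.3, 44.4, 54.2 and 48.2 TPM. Replicate 3 was the high library, the others lay within 44.4 to 48.2 TPM, and the mean of 48.5 ± 4.12 TPM exceeded 80.4% of protein-coding genes. Its paralog Bcl11a, which acts in B cells and in haemoglobin switching, had 6, 4, 6 and 6 counts, or 0.0238 ± 0.00753 TPM. Bcl11b minus Bcl11a was 5.59 ± 0.11 on the log2(TPM + 1) scale, and Bcl11b minus Ikzf1 was -2.96 ± 0.08, each with 1 sign in 4 of 4 libraries and an exact permutation p of 0.125. Bcl11b RNA was 0.117 to 0.134 times Ikzf1 RNA within libraries.

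Ordered by mean TPM, the members ran Ikzf1, Cbfb, Runx3, Bcl11b, Ikzf5, Runx1, Ikzf2, Ikzf4, Runx2 and Ikzf3. Neighbours kept their order in 4 of 4 libraries except for Ikzf5 over Runx1, with a log2(TPM + 1) difference of 0.00 ± 0.05, and Ikzf2 over Ikzf4. For both of these pairs the ranges over libraries overlapped and the sign was positive in 2 of 4 libraries. The smallest difference with 1 sign in 4 libraries was Runx3 over Bcl11b, 0.42 ± 0.09, and the largest was Runx2 over Ikzf3, 1.80 ± 0.27.

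Places in the middle of the order moved with the length used. Ikzf1, Cbfb and Runx3 stayed in places 1 to 3 and Ikzf3 in place 10 with the exon length in the files, the longest coding transcript and the longest coding sequence of GENCODE release 21. Runx1 moved from place 6 with exon length to place 5 with 36.6 ± 3.76 TPM by coding transcript and place 4 with 70.0 ± 7.24 TPM by coding sequence. By coding sequence it stood above Bcl11b, at 51.5 ± 4.74 TPM, and Ikzf5, at 37.7 ± 2.78 TPM. There, counts over all exons were divided by coding length alone, which raises genes with long untranslated parts. Runx1 has 11827 exon bases and 1395 coding bases. For Ikzf4 the files' exon length of 3580 bases is shorter than the longest coding transcript of the later annotation, 5150 bases, so the counts may not cover that transcript whole.

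**Figure D3:**
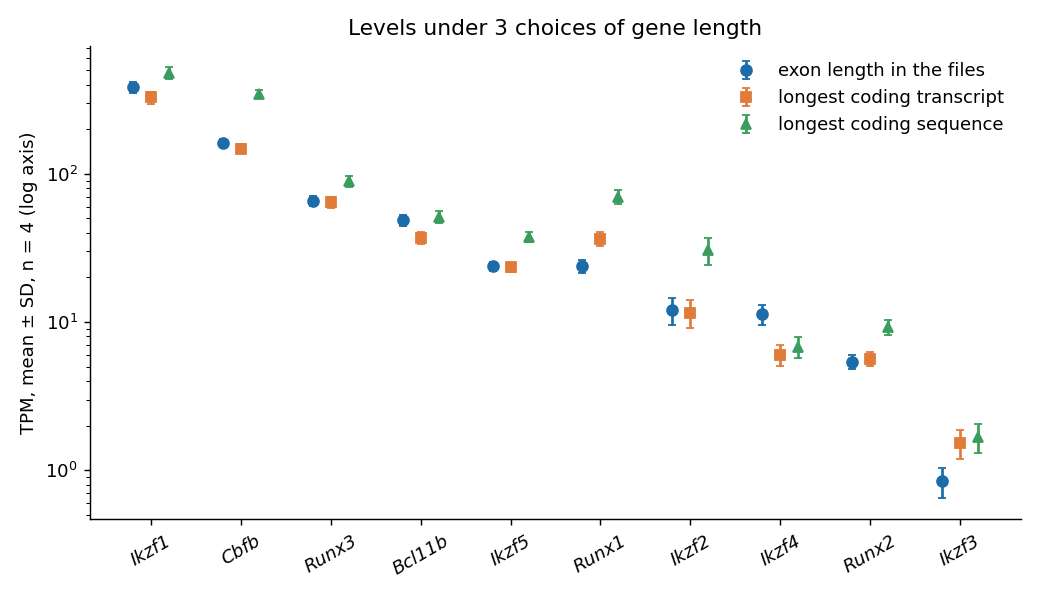
TPM of each factor (mean ± SD, n = 4 libraries, log axis) computed with the exon length in the files, the longest coding transcript and the longest coding sequence. TPM by the coding lengths is scaled over protein-coding genes only, and the counts cover all exons under each length. Runx1 stands at 23.8, 36.6 and 70.0 TPM under the 3 lengths, and Ikzf1, Cbfb and Runx3 are the 3 highest genes under each.

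Among 36 T-cell transcription factors listed for comparison, 2 had a higher mean than Ikzf1, namely Irf4 at 673 ± 59.7 TPM and Id3 at 572 ± 42.1 TPM. Irf4 is induced by antigen-receptor signals, and Id3 holds E proteins off DNA. The listed factors had a median of 77.8 TPM, and 35 of the 36 were detected. Cbfb had 8 of the 36 above it, Runx3 20, Bcl11b 23, Ikzf5 and Runx1 28 each, Ikzf2 30, Ikzf4 31 and Runx2 32. Ikzf3 had 35 above it, and only Prdm1, which encodes BLIMP1, was lower, at 0.0353 ± 0.0237 TPM.

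**Figure D4:**
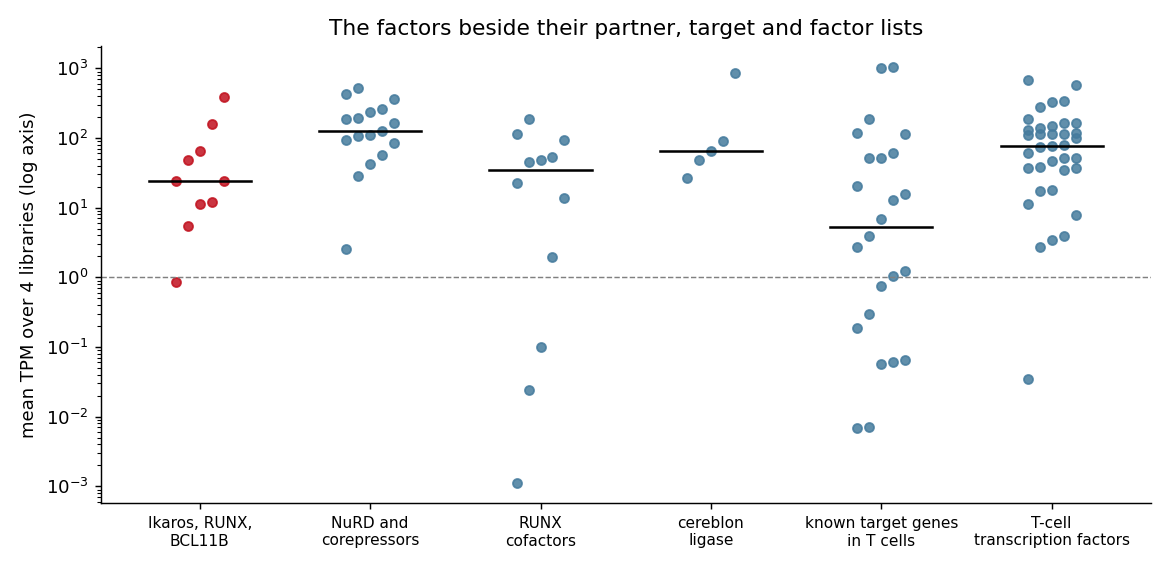
Mean TPM over 4 libraries on a log axis for the 10 factors (red) and the genes of 5 comparison lists (blue), with a bar at each list's median and a dashed line at 1 TPM. The medians are 23.8 TPM for the 10 factors, 128 for NuRD and corepressor subunits, 34.3 for RUNX cofactors, 65.6 for the cereblon ligase, 5.36 for known target genes and 77.8 for T-cell transcription factors.

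RNA of the machinery through which Ikaros proteins and BCL11B act was present throughout. All 17 NuRD and corepressor subunits were detected, at a median of 128 TPM. The histone-binding subunit gene Rbbp7 averaged 518 ± 23.7 TPM, the remodelling ATPase gene Chd4 426 ± 53.2 TPM and Mta2 363 ± 7.97 TPM. Chd4 had 458, 364, 481 and 402 TPM in replicates 1 to 4, high in replicates 1 and 3 as Ikzf1 was. Expressed protein-coding genes in general also tended to be higher in these replicates, as given below. Among the 17 subunits, 4 were highest in replicate 1, 1 in replicate 2, 9 in replicate 3 and 3 in replicate 4. Ctbp1 hardly moved, with 185, 188, 191 and 187 TPM. The lowest was the corepressor gene Ctbp2 at 2.53 ± 0.605 TPM, whereas its relative Ctbp1 averaged 188 ± 2.73 TPM. None of the 17 was called variable by the edgeR test described below.

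Of 12 RUNX cofactor genes, 9 were detected. The Groucho-related Tle5 averaged 189 ± 19.1 TPM and Tle3 93.1 ± 9.28 TPM, and Ets1, whose product binds DNA together with RUNX1, averaged 116 ± 9.39 TPM. The undetected genes were Tle2 at 0.0991 ± 0.0700 TPM, and Cbfa2t3 and Runx1t1 of the ETO corepressor family. Cbfa2t3 had 12, 1, 0 and 1 counts, and Runx1t1 had 1 count in replicate 4 only. Kmt2a, a histone methyltransferase gene, had 66.4, 38.0, 60.7 and 49.6 TPM and was the 1 gene of the list called variable, with an edgeR adjusted p of 0.0277. It was high in replicates 1 and 3, as Ikzf2 was. Levels over the 11054 protein-coding genes with a mean TPM of at least 1 also tended to be higher in these replicates, as given below. Among the 12 cofactor genes, 2 were highest in replicate 1, 6 in replicate 3 and 4 in replicate 4.

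Cereblon is the substrate receptor through which thalidomide analogs mark human IKZF1 and IKZF3 for degradation. All 5 genes of its ligase were detected, Crbn being the lowest at 26.4 ± 1.18 TPM. Ddb1, the adaptor, averaged 863 ± 63.3 TPM, Rbx1 90.9 ± 7.37 TPM and Cul4b 65.6 ± 6.59 TPM. Trps1, a zinc-finger gene related to the Ikaros family, averaged 11.5 ± 1.65 TPM.

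Of 24 genes known from other settings as targets of these factors, 14 were detected, and the list's median was 5.36 TPM. Cd4, silenced by RUNX in CD8 cells, averaged 1056 ± 62.8 TPM, and Zbtb7b, which encodes the helper-lineage factor ThPOK that opposes RUNX3, had 113, 107, 122 and 116 TPM. Il2 averaged 1015 ± 71.5 TPM and Csf2 189 ± 18.1 TPM, and both encode cytokines of activated T cells. Of the helper-subset factor genes, Gata3 averaged 51.0 ± 3.57 TPM, Tbx21 3.92 ± 0.869 TPM and Foxp3 2.74 ± 0.948 TPM.

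The 10 targets that were not detected were Cd8a, Itgae, Prf1, Ifng, Il4, Il10, Zbtb16, Dntt, Igll1 and Ptcra. They include cytotoxic and CD8 genes, with Itgae at 0.299 ± 0.132 TPM and Prf1 at 0.762 ± 0.214 TPM, although the cytotoxic gene Gzmb was detected at 12.8 ± 0.935 TPM. They also include genes of immature lymphocytes, of which Dntt had 0, 5, 2 and 1 counts and Ptcra 0, 0, 0 and 1, while Rag2 had 0 counts in every library, which allows up to 0.0629 TPM at 3 counts a library. Zbtb16, the factor of innate-like T cells, was lowest, with 0, 0, 1 and 2 counts. No gene of this list was called variable, of the 16 that passed the count filter and were tested. Ifng was not among those tested. It had 2.95 TPM in replicate 1, against 0.908, 0.444 and 0.639 TPM in replicates 2 to 4.

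To ask which genes differed between libraries beyond the spread usual at their abundance, each gene's deviance in an intercept-only edgeR fit was tested. None of the 10 members was called at an adjusted p under 0.05, against 94 of 13681 genes tested (0.687%). At an unadjusted p under 0.05 the edgeR test took 1 member and 959 genes, or 7.01%. DESeq2 marked 43 genes as dispersion outliers, 0 of them members. The median SD of log2(TPM + 1) was 0.127 over the members and 0.111 over the 11054 protein-coding genes with a mean TPM of at least 1.

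**Figure D5:**
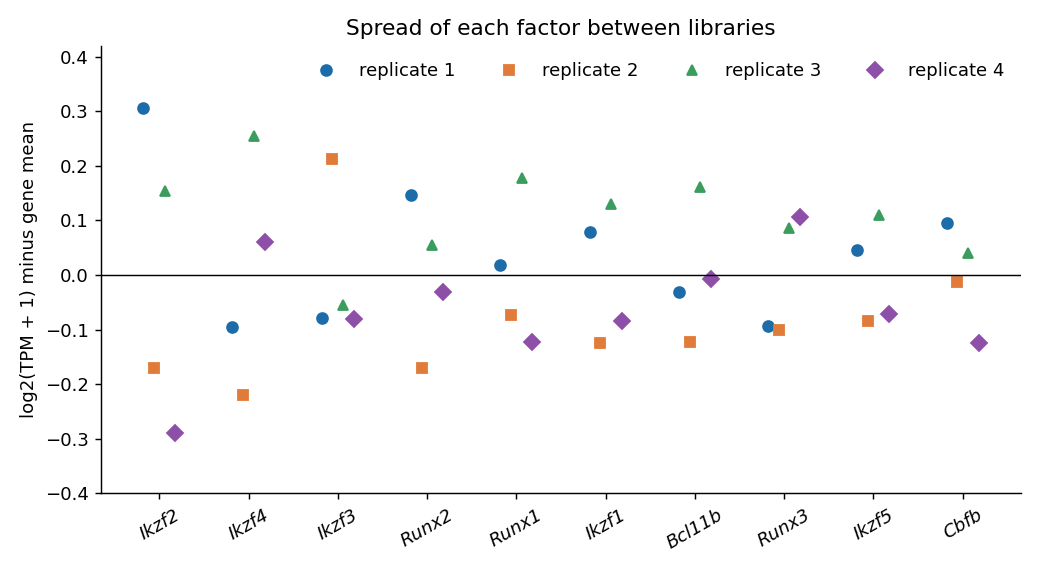
Log2(TPM + 1) of each library minus the gene's mean over the 4 libraries, with genes ordered by their SD from left to right. Ikzf2 spans 0.31 in replicate 1 to -0.29 in replicate 4, and replicate 3 is above 0 for every gene except Ikzf3.

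The 1 member at an unadjusted p under 0.05 was Ikzf2, with an edgeR p of 0.00253 and an adjusted p of 0.159. Its deviations from its mean were 0.31, -0.17, 0.15 and -0.29 in replicates 1 to 4, and its SD of 0.278 was the largest of the members on the log2(TPM + 1) scale. The adjusted p ran from 0.0739 without replicate 3 to 0.909 without replicate 1 over the alternatives of the edgeR fit, so no alternative called it. On the log2 CPM scale, which uses no pseudocount of this size, Ikzf3 had the larger SD, 0.333, and Ikzf2 0.262, and the edgeR p of Ikzf3, at 94 to 180 counts, was 0.358. The other members had unadjusted edgeR p-values from 0.304 for Ikzf4 to 0.911 for Ikzf5.

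The protein-coding genes whose deviations over the 4 libraries lay nearest to those of Ikzf2 were Pik3ap1, Dqx1 and Zfp329, with root-mean-square differences of 0.017, 0.017 and 0.027 on the log2(TPM + 1) scale. Pik3ap1 had 25.7, 18.1, 23.1 and 16.2 TPM, Dqx1 6.75, 4.62, 6.17 and 4.13 TPM, and Zfp329 12.9, 8.76, 11.4 and 8.45 TPM. Foxp3, a regulatory T-cell gene as Ikzf2 often is, had 2.36, 3.54, 3.49 and 1.58 TPM. It was high in replicate 2, where Ikzf2 was low, and in replicate 3, where Ikzf2 was high. Of 9 regulatory T-cell markers 7 were detected, and their summed TPM ran from 2507 in replicate 1, where Ikzf2 was highest, to 2745 in replicate 4, where it was lowest. Most of that sum came from genes that activated T cells also express, such as Il2ra at 527 ± 24.1 TPM. Nrp1 of the same list had 45.2, 39.9, 47.1 and 40.2 TPM, high in replicates 1 and 3 as Ikzf2 was. Among the 9 markers, 2 were highest in replicate 1, 2 in replicate 2, 2 in replicate 3 and 3 in replicate 4. The part of regulatory T cells in the Ikzf2 level was not tested.

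Replicate 3 gave the highest TPM for 5 of the 10 members and replicate 2 the lowest for 6. Over all tested genes, replicate 3 was highest for 38.4% and replicate 2 lowest for 41.1%. Long genes shared this order: the 1654 genes with an exon length over 8000 bases had median deviations of 0.07, -0.14, 0.13 and -0.05 in replicates 1 to 4, against 0.02, -0.05, 0.05 and -0.02 over all 11054 genes. Ikzf2, Runx1, Runx2, Ikzf3 and Bcl11b are of that length, and the part of gene length in their order over libraries was not tested. Ikzf2, Runx2 and Cbfb were highest in replicate 1, Ikzf3 in replicate 2 and Runx3 in replicate 4. Ikzf4, Runx3 and Bcl11b were higher in both of replicates 3 and 4 than in either of replicates 1 and 2, the split seen in Xist. These were 3 of the 10 members, and 31.1% of the 13681 tested genes had no overlap between the same pairs in one direction or the other, a similar share.

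Counting was strand-specific, which sets apart reads of genes on the opposite strand as far as the libraries kept strand. How completely they did was not measured, and what opposite-strand genes added to the members' counts was not tested. No gene of the 8 that overlap a member on its own strand had over 100 counts in any library. Of 12 on the opposite strand, Pstk beside Ikzf5 had 727 to 1557 counts and Supt3 beside Runx2 715 to 1630 counts. The antisense gene Runx2os1 had 8 to 38 counts.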

How the data were processed

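Each library has its own deposited table of raw counts, without pooling or normalization. The authors ran featureCounts 1.4.6-p4 in paired, reverse-stranded mode with both ends required, over the exons of GENCODE mouse release 13 genes, per the file headers. The headers set no option for multimapping or multi-overlapping reads. Per the labels the build is mm10; the aligner's version is not given in the sources used here. The labels' title says total RNA-seq, and the linked library protocol is named for poly(A)+ RNA. Symbols, coding transcripts and coding sequences came from GENCODE release 21, matched on Ensembl identifiers for 50376 of 50600 genes, and promoter windows from RefSeq (GRCm38.p6). Tle5 was matched through its synonym.

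TPM was computed from the counts and the files' exon lengths. A gene counted as detected when it reached 1 TPM in all 4 libraries. For variable genes, edgeR 4.0.16 (R 4.3.3) fitted an intercept alone after filterByExpr and TMM scaling, using the trended dispersion. Each gene's deviance was referred to chi-square with 3 degrees of freedom and adjusted by Benjamini-Hochberg over 13681 genes. Pairs of genes were compared within libraries on log2(TPM + 1), pseudocount 1, by an exact two-sided sign-flip permutation test over 16 sign patterns. Library totals were 58522696, 53569919, 49613182 and 94222415 counts, so genes of a few counts are imprecise; a gene at 0 counts was given a limit of 3 counts a library, which covers counting error only. DESeq2 1.42.0 served for alternatives, and the tables and figures were made in Python 3.11.15 with pandas 2.3.3, numpy 2.4.6, matplotlib 3.10.9 and scipy 1.17.1.

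With 1 group, no comparison between groups was made. The members and lists were chosen with earlier results of these data known. Named genes are the members, the genes of each pair, the 3 highest, the lowest and any variable genes of each list, the first 2 genes of each marker list, and the 3 genes nearest in profile to the member of largest SD. Some list genes are not reported here by name. Other list genes, and the core spacing, were chosen after their values were seen. Alternatives were other TPM thresholds (0.5 and 5), a count of 10, a pseudocount of 0.1, TPM over protein-coding genes, a common dispersion, a mean count of 50 or no low-count filter, unscaled counts, DESeq2's scaling and its dispersion outliers, and leaving out each replicate. The 2 coding lengths were added after seeing the data.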

Additional observations from a re-analysis of the deposited data

Results flagged for a closer look

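In 8 of the 68 gene levels and shares examined, 1 library stood apart from the other 3. The measure was the gap to its nearest neighbour over the whole range. Chance gives about 1 in 20 for independent, normally distributed values. That rate cannot be set against these 8. A gene's level and its share overlap, and some genes had 0 counts in 3 libraries. Replicate 2 stood apart for Ikzf3, at 1.13 TPM with the others at 0.740 to 0.771 TPM, and for the Ikzf3 share of the Ikaros family, at 0.287% with the others at 0.163% to 0.183%. Replicate 1 stood apart for the Runx2 share of the RUNX genes, at 6.65% with the others at 5.32% to 5.53%. The other 5 rest on very few counts. Prdm1 was at 0 TPM in replicate 1 and at 0.0444 to 0.0515 TPM elsewhere. Runx1t1 had 0.00452 TPM in replicate 4 from 1 count, and Lyz2 0.0546 TPM in replicate 3 from 1 count. Csf1r had 0.0589 TPM in replicate 4 from 8 counts and Rag1 0.0109 TPM in replicate 4 from 2 counts. Runx1t1, Lyz2, Csf1r and Rag1 had 0 counts in the other 3 libraries, so their gap is the whole range by construction.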

How the results depend on the processing

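Sizes of pair differences moved with gene length: by longest coding sequence Runx1 minus Runx3 was -0.35, against -1.42 by exon length, Ikzf1 minus Ikzf2 3.94 against 4.89, and Ikzf4 minus Ikzf5 -2.31 against -1.02, each with its sign kept. No member was called variable under any setting. The count of variable genes, 94, was 617 with a common dispersion, 43 as DESeq2 dispersion outliers, and 38 to 87 when each replicate was left out in turn, with 46 without replicate 1, 38 without replicate 2 and 46 without replicate 4. Ikzf2 minus Ikzf4, 0.08 on the log2(TPM + 1) scale, turned to -0.05 without replicate 1 and reached 0.20 without replicate 4; it was 2.00 by coding sequence and 0.83 by coding transcript. Shares of family TPM moved with length. In unscaled counts Ikzf1 held 87.2%, Ikzf2 5.50%, Ikzf3 0.296%, Ikzf4 1.60% and Ikzf5 5.38% of the Ikaros family, Runx1 42.9%, Runx2 7.29% and Runx3 49.8% of the RUNX genes, and Cbfb over RUNX was 0.856. By longest coding sequence the values were 86.2% for Ikzf1, 5.47% for Ikzf2, 0.309% for Ikzf3, 1.23% for Ikzf4, 6.79% for Ikzf5, 41.5% for Runx1, 53.0% for Runx3 and 2.06 for Cbfb. By longest coding transcript they were 88.5% for Ikzf1, 0.424% for Ikzf3, 1.62% for Ikzf4, 6.36% for Ikzf5, 34.4% for Runx1, 60.3% for Runx3 and 1.39 for Cbfb. These alternatives keep the counts and change the gene lengths. TPM by the 2 coding lengths was also scaled over only the 21697 genes with a coding length. Shares and ratios within a library do not depend on that scaling. No paired analysis was possible because the labels give 1 group. Lengths from RefSeq proteins were not run. Depth limits Ikzf3, at 94 to 180 counts, and genes of a few counts most.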

Other observations

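Of 8 CD8 and cytotoxic genes, 3 had their highest level in replicate 1, namely Gzma, Cd8a and Prf1, and replicate 1 was highest for 30.1% of all tested genes. Gzma had 17, 0, 1 and 0 counts in replicates 1 to 4, Cd8a 0.311, 0.170, 0.197 and 0.0792 TPM, Prf1 1.01, 0.599, 0.861 and 0.571 TPM, and, outside that list, Ifng 2.95, 0.908, 0.444 and 0.639 TPM. Of the other 5 genes, Nkg7 was highest in replicate 2, with 27.8, 33.6, 26.8 and 27.6 TPM, and Gzmb in replicate 4, with 12.3, 12.2, 12.4 and 14.2 TPM. Cd8b1 had 15.2, 12.7, 17.1 and 18.1 TPM and Eomes 3.04, 2.19, 4.68 and 3.90 TPM, while Klrg1 had 0.253, 0, 0.254 and 0 TPM. Runx3, the factor of the CD8 lineage, was not highest in replicate 1, where it had 61.1 TPM, against 70.3 TPM in replicate 4.

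Alpl, which encodes alkaline phosphatase, was the 1 marker-list gene called variable, with an edgeR adjusted p of 9.64e-15. Its replicates 2 and 4 had 8.86 and 11.8 TPM and replicates 1 and 3 had 3.15 and 2.79 TPM, so it did not follow the split of the libraries by Xist. Of the Groucho-related genes, Tle1 had 1.27, 1.49, 2.20 and 2.76 TPM with an edgeR adjusted p of 0.174. Tle2 had 3, 5, 13 and 29 counts and was not among the genes tested. Both were higher in replicates 3 and 4 than in replicates 1 and 2. Of all tested genes, 31.1% had no overlap between these pairs in one direction or the other. Tle5 overlapped between them, with 169, 195, 181 and 213 TPM, and Tle3 and Tle4 were highest in replicate 3 and lowest in replicate 2.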
